A study of Mus musculus with 2 samples.

Results

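Genes that break down pyrimidine and purine bases and nucleosides were compared in the livers of mice that had eaten too little n-3 polyunsaturated fatty acid and were then treated in different ways. The genes were chosen by symbol: Upp1, Upp2, Dpyd, Dpys, Upb1, Cda and Tymp of the pyrimidine route, and Uox, Xdh and Ada of the purine route. Of these 10 genes, 9 were among the 18193 genes named on the array. They had 15 probe sets named for the gene alone, 13 of them above the signal floor described below, and all 9 had at least 1 probe set above it. Tymp, the thymidine phosphorylase, had none and has no value here. The genes were picked with earlier results of these arrays known, so every difference below is a description.

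The DEF/FOS group was fed a diet depleted in n-3 fatty acids, in which sunflower oil replaced the soybean oil, for 112 days and in the last 10 days also drank fructooligosaccharides, a fermentable fibre, at 0.25 g per day. The DEF/CT group ate the same depleted diet and was put back on the soybean oil control diet for the last 10 days. All animals were male C57Bl/6J mice, given as 9 weeks old before 1 week of acclimatisation, and they shared the depletion. In the last 10 days the diet held n-6 and n-3 fatty acids at a ratio of 127.2 for DEF/FOS mice and of 6.9 for DEF/CT mice. The labels give 8 mice in each group, and liver RNA of the mice of a group, given as 4 to 8, was pooled in equal amounts and put on 1 Affymetrix array. The groups differed in both the fibre and the oil, so a difference cannot be assigned to either. Each group is 1 array, so nothing below has a replicate check or a test, and "DEF/FOS liver" and "DEF/CT liver" stand for these RNA pools.

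Pyrimidine nucleosides are split by phosphorylases into a free base and a sugar phosphate, and the base is then reduced, opened and cut to a beta-amino acid, carbon dioxide and ammonia. The liver carries out much of this breakdown and is known to take up and release uridine. Purine nucleosides are deaminated and split to hypoxanthine or guanine, both of which lead to xanthine and uric acid. Mice, unlike humans, have a working urate oxidase that carries uric acid on towards allantoin.

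Values are MAS5 signals, a linear brightness in arbitrary units that the authors scaled to a common mean per array. Differences are log2 signal in DEF/FOS liver minus log2 signal in DEF/CT liver, centred on their median, so a fold need not equal the exact quotient of the printed signals. The floor is the median signal of all probe sets, 19.4, and is no detection call. The SD of the difference between probe sets of the same gene, the only technical spread these arrays give, was 0.48 on the log2 scale for genes below a signal of 84.3 and 0.30 for brighter genes. Signals of different probe sets are not compared with each other as levels, because each binds with its own strength.

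Uridine phosphorylase 2 was the breakdown gene that stood apart. Of the 9 genes, 1 was at least 1.5-fold lower in DEF/FOS liver, Upp2, and 0 were at least 1.5-fold higher. The background was 7.82% lower and 6.75% higher by that much, among all 11163 genes above the floor. At 2-fold the counts of breakdown genes were again 1 lower and 0 higher, beside 2.19% and 1.74% of all genes. The median difference of the 9 genes was -0.01 on the log2 scale, where centring sets the median over all genes near 0. Without Upp2 the median of the other 8 was 0.10. Differences lay above 0 in 4 of the 9 genes, beside 49.9% of all genes.

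**Figure D1:**
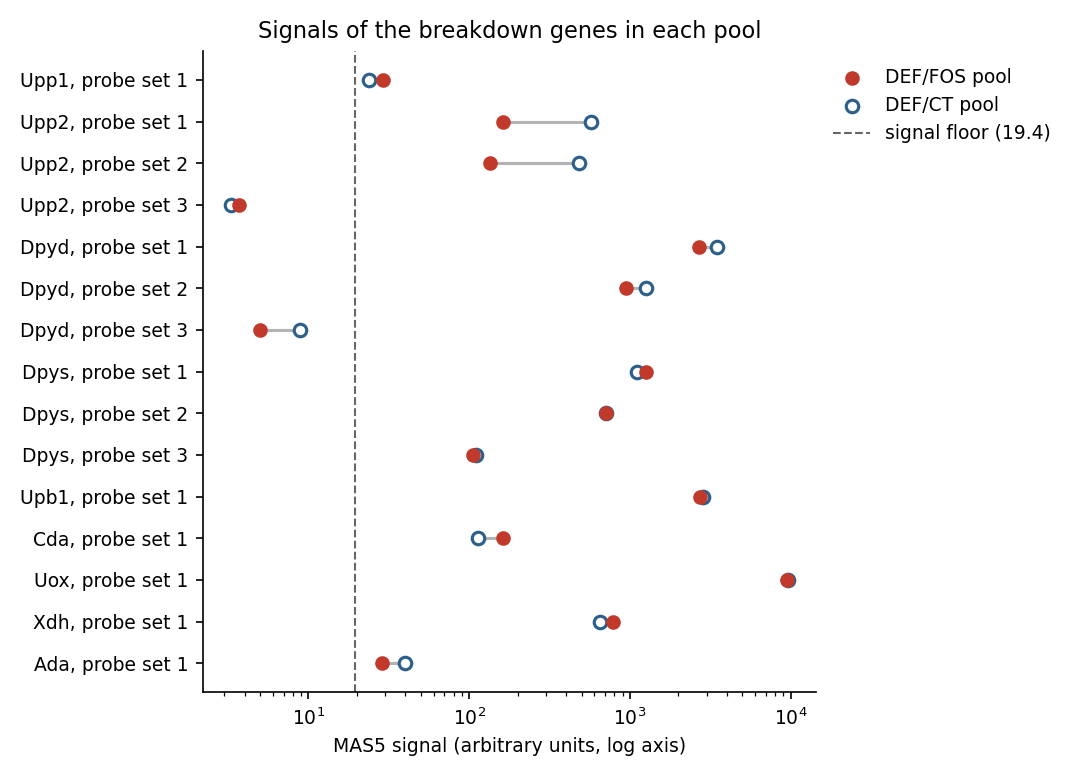
MAS5 signal (log axis, arbitrary units) of each of the 15 probe sets of the breakdown genes in DEF/FOS liver (filled red) and the DEF/CT pool (open blue), 1 array each, with the signal floor of 19.4 as a dashed line and probe sets of a gene ordered by brightness. The first and the second probe set of Upp2 are widely separated, at 161 and 136 in DEF/FOS liver against 574 and 485 in DEF/CT liver, while the points of Uox lie on each other.

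Upp2 encodes the uridine phosphorylase that is known as the liver form in mice, and splits uridine to uracil. Probe set 1424969_s_at gave a signal of 161 in DEF/FOS liver and 574 in DEF/CT liver, a 3.52-fold lower signal with DEF/FOS and a log2 difference of -1.81. Probe set 1451548_at had signals of 136 in DEF/FOS liver and 485 in DEF/CT liver, a 3.54-fold lower signal. Both probe sets were thus lower in DEF/FOS liver by nearly the same factor, and their differences were 0.01 apart on the log2 scale. The annotation lists them under the same sequence record, so they are no independent measurements. The remaining Upp2 probe set, 1460059_at, comes from another sequence record and lay below the floor, with 3.68 in DEF/FOS liver and 3.28 in DEF/CT liver.

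Ranked by the difference, Upp2 was number 42 from the lowest of the 11163 genes. Of 3252 genes whose mean signal lay within 2-fold of that of Upp2, Upp2 included, 2 had a difference at least as negative. The other one was Slc22a7, a transporter of organic anions, named after its values were seen. The SD of the difference over those 3252 genes was 0.32. In liver RNA from pools, fewer cells of a type and less RNA per cell cannot be told apart. The hepatocyte markers gave 0 of 8 genes at least 1.5-fold apart, beside 6.75% of all genes higher and 7.82% lower, with a median difference of -0.03. These markers are bright, with a median signal of 5655 in DEF/FOS liver and 6864 in DEF/CT liver, and differences of bright genes spread less. Over 138 genes of the signal of Uox the SD was 0.19. The part of cell shares in the difference of Upp2 was not tested.

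**Figure D2:**
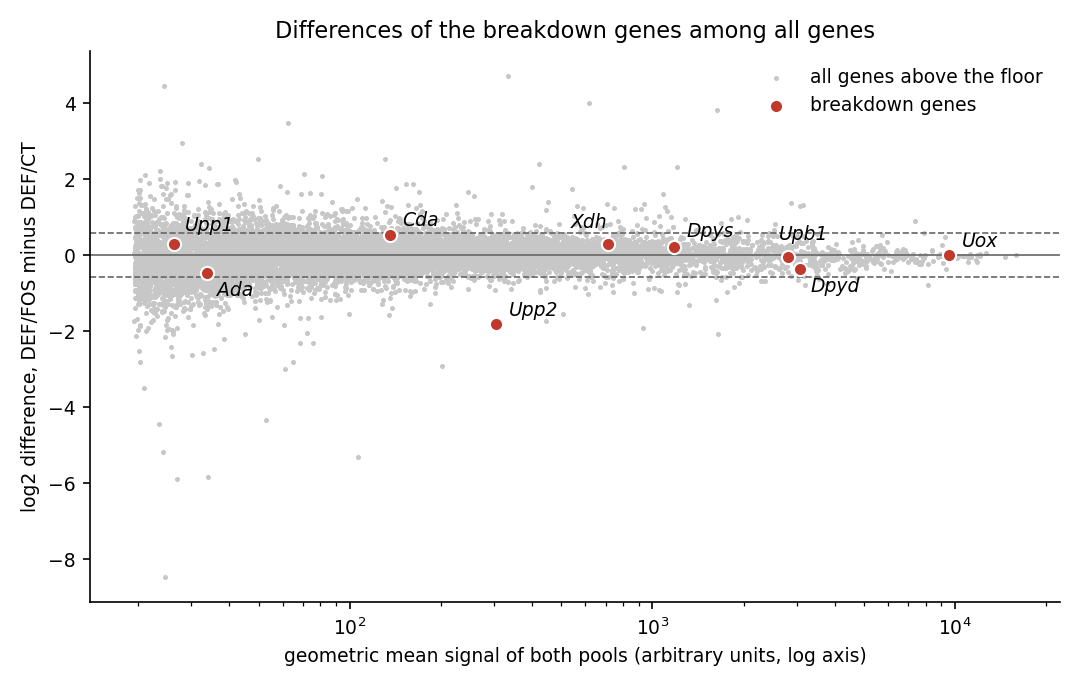
Log2 difference, DEF/FOS minus DEF/CT, against the geometric mean signal of both pools (log axis) for all 11163 genes above the floor (grey) and the 9 breakdown genes (red), with dashed lines at 1.5-fold. Upp2 at -1.81 lies below the grey cloud of genes of like signal, and the other 8 genes lie between the dashed lines.

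Upp2 has a pair of annotated starts in RefSeq (GRCm38.p6), 187850 bases apart on chromosome 2, and the array does not show which of them was used. Both promoters are printed because Upp2 carries the main difference, and that of Uox stands beside them as a gene whose pools were nearly equal. The window runs from 250 bases before to 50 after the start, and capitals mark the motifs searched for: the TATA box searched as TATAAA, the CCAAT box searched by those letters, the GC box as GGGCGG, the E-box as CACGTG, the nuclear receptor hexamer as AGGTCA, the HNF1 hexamer as GTTAAT and the STAT element as TTCNNNGAA, on either strand. No 2 of these matches overlap in the printed sequences.
Upp2 start 1, chr2:58567084-58567383, plus strand: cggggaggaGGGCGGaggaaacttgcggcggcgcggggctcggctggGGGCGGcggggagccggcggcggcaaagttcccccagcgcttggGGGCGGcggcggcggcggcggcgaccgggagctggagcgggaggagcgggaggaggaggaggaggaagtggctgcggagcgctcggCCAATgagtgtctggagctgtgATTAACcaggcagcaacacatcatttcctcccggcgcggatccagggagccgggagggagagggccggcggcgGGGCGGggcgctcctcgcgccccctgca
Upp2 start 2, chr2:58754934-58755233, plus strand: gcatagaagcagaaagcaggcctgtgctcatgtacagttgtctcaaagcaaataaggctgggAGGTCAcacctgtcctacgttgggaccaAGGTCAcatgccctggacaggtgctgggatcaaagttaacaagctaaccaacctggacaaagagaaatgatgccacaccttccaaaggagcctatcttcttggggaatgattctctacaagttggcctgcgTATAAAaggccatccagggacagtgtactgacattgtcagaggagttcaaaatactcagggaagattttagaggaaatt
Uox, chr3:146596899-146597198, plus strand: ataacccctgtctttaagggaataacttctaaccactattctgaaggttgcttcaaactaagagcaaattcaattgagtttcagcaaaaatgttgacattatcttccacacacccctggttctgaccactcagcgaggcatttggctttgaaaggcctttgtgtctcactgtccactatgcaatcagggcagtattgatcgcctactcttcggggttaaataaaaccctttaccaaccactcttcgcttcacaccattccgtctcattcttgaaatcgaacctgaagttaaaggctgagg

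The Upp2 starts differ in composition. Start 1 was 75.3% G and C with 37 CG pairs, and start 2 was 47.0% with 2, where the median of 32851 promoters was 52.7% with 7. Start 1 held 4 GC boxes, 1 CCAAT box at position -73 and 1 HNF1 hexamer at position -51, counted with the start as position 1. Start 2 held a TATA box at position -29 and nuclear receptor hexamers at positions -188 and -160. It was the only one of 11 promoters of 8 breakdown genes with a TATA box, which 13.6% of all promoters and 15.7% of all 27025 genes hold. Counted by gene, nuclear receptor hexamers were found in 2 of the 8, Upp1 and Upp2, beside 18.1% of all genes, and the HNF1 hexamer in Upp2 only, beside 8.24%. GC boxes were found in 5 of the 8 genes and 38.2% of all, and CCAAT boxes in 4 of the 8 and 41.1% of all. The E-box was in none of the 8 and in 8.09% of all genes, and the STAT element in Ada only, beside 9.55% of all. The windows of Upp1 starts 1 and 2 overlap, so their GC box is the same site. The Uox window held none of the motifs. Dpys and Xdh were not searched. A match says only that these letters stand there.

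**Figure D3:**
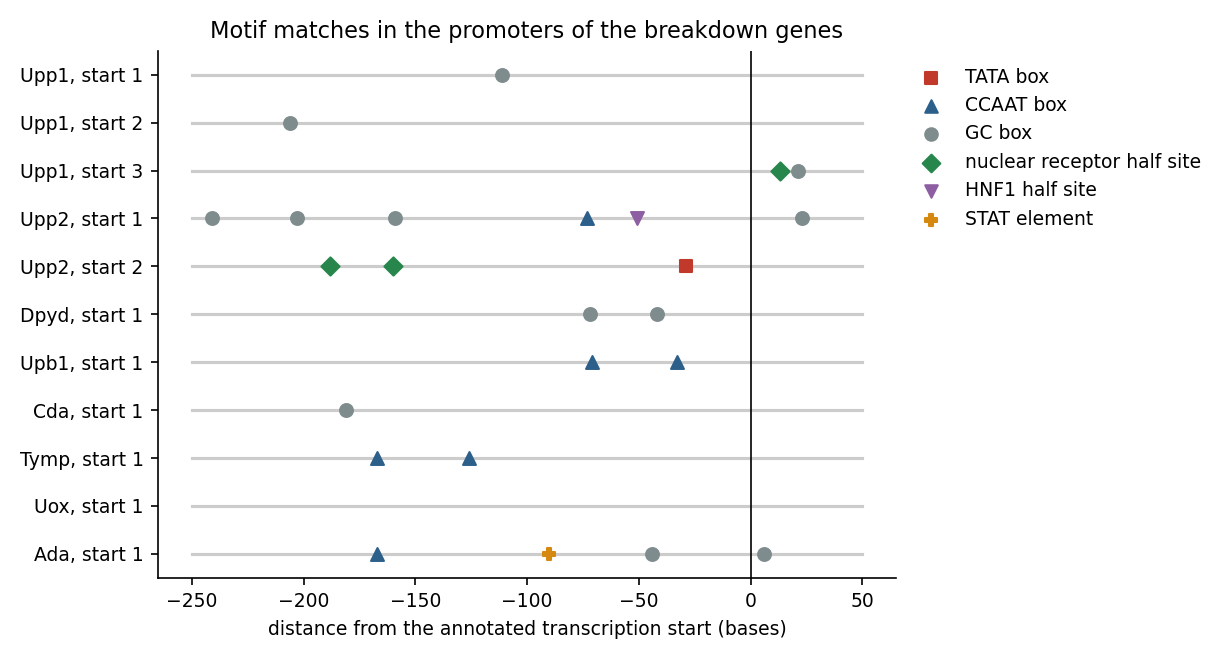
Position of motif matches from 250 bases before to 50 bases after each annotated start (x axis, bases) in the 11 promoters of 8 breakdown genes, 1 row for each start, with the motif given by symbol and colour. The only TATA box lies at -29 of Upp2 start 2, and the Uox row is empty.

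The other uridine phosphorylase gene, Upp1, was measured close to the floor and ran the other way. Its single probe set, 1448562_at, gave a signal of 29.1 in DEF/FOS liver and 23.8 in DEF/CT liver. The log2 difference of 0.30 was smaller than the spread between probe sets at that brightness, 0.48. Cda, which deaminates cytidine to uridine and so feeds the phosphorylases, had signals of 163 in DEF/FOS liver and 113 in DEF/CT liver (1427357_at). Its log2 difference of 0.54, or 1.46-fold higher in DEF/FOS liver, was the largest positive one of the 9 genes and stayed short of 1.5-fold. It exceeded the spread between probe sets of 0.30, and 864 of the 11163 genes, Cda included, had a difference at least as high. No other probe set was there to check it.

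The enzymes that take uracil and thymine apart differed far less than Upp2. Dpyd, dihydropyrimidine dehydrogenase, the rate-limiting first step, had signals of 2698 in DEF/FOS liver and 3497 in DEF/CT liver by its brightest probe set (1427946_s_at). A fainter one, 1427945_at, had 947 in DEF/FOS liver and 1255 in DEF/CT liver. Both were lower in DEF/FOS liver, with log2 differences of -0.36 and -0.39, or 1.28-fold and 1.31-fold. They share a sequence record as those of Upp2 do, and 1443717_at, from another record, was below the floor at 4.99 in DEF/FOS liver and 8.82 in DEF/CT liver. Among 582 genes within 2-fold of the mean signal of Dpyd, 54 were at least as low.

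Dpys, the dihydropyrimidinase that opens the ring, gave no uniform direction. Its brightest probe set, 1436291_a_at, had 1264 in DEF/FOS liver and 1103 in DEF/CT liver, a log2 difference of 0.21. Probe set 1425688_a_at had 711 in DEF/FOS liver and 708 in DEF/CT liver, and 1425689_at had 105 in DEF/FOS liver and 111 in DEF/CT liver. The 3 differences ran from -0.06 to 0.21, with an SD of 0.14, and so straddled 0. Upb1, beta-ureidopropionase, which releases the beta-amino acid, had 2735 in DEF/FOS liver and 2857 in DEF/CT liver (1460244_at), a log2 difference of -0.05. For the successive enzymes Dpyd, Dpys and Upb1 the differences were therefore -0.36, 0.21 and -0.05, all within 1.5-fold.

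The purine genes were also within 1.5-fold. Ada, adenosine deaminase, which turns adenosine into inosine, had signals of 28.5 in DEF/FOS liver and 39.8 in DEF/CT liver (1417976_at), a log2 difference of -0.46. That difference was close to the spread of 0.48 between probe sets of dim genes, and 893 of 3744 genes of like signal were at least as low. Xdh, xanthine dehydrogenase, which makes xanthine and then uric acid, had 786 in DEF/FOS liver and 651 in DEF/CT liver (1451006_at), a log2 difference of 0.29, or 1.22-fold higher. This stayed within the spread of 0.30. Uox, urate oxidase, had 9508 in DEF/FOS liver and 9645 in DEF/CT liver (1422604_at), a log2 difference of -0.01. The pools were almost equal for Uox, and the SD of the difference over 138 genes of like signal was 0.19.

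Over the whole arrays, the median signal was 19.6 in DEF/FOS liver and 22.0 in DEF/CT liver. Of the 12 marker lists of cell types, skeletal muscle was at least 1.5-fold lower in DEF/FOS liver in 10 of 10 genes, beside 7.82% of all genes. Its summed signal was 138 in DEF/FOS liver and 2458 in DEF/CT liver. B and plasma cell markers were at least 1.5-fold lower in 3 of 4 genes, beside the same 7.82%, with a sum of 340 in DEF/FOS liver and 987 in DEF/CT liver. Most of that sum was Ighm, at 243 in DEF/FOS liver and 809 in DEF/CT liver, whose probe sets disagreed in sign, from -1.72 to 0.23. Neutrophil markers summed to 428 in DEF/FOS liver and 145 in DEF/CT liver, and 3 of 5 genes were at least 1.5-fold higher, beside 6.75% of all genes. These were S100a8, S100a9 and Lcn2, the last of them close to the floor in DEF/CT liver at 20.9. Elane and Ngp of the same list differed by -0.30 and 0.10. Mpo was below the floor at 2.83 in DEF/FOS liver, against 21.8 in DEF/CT liver. Kupffer cell and macrophage markers were at least 1.5-fold higher in 1 of 8, or 12.5%, beside 6.75% of all genes. Their sum was 3410 in DEF/FOS liver and 2887 in DEF/CT liver. Hepatocyte markers summed to 57858 in DEF/FOS liver and 60399 in DEF/CT liver, and no marker was listed at 0. In each of the other 7 lists at most 1 gene was past 1.5-fold. Some of these lists were short, with 1 of 2 T and NK cell genes and 1 of 3 pancreas genes lower, and 1 of 3 cholangiocyte genes higher. The part of these cells in the differences of Upp1, Cda and Ada, which immune cells also express, was not tested.

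The wider nucleotide pathway was followed through 8 lists of 81 genes, of which 73 had a probe set and 65 lay above the floor. Of the 65, 7 were at least 1.5-fold higher in DEF/FOS liver and 2 at least 1.5-fold lower, which is 10.8% and 3.08%, beside 6.75% and 7.82% of all genes. Their median difference was 0.02. Several probe sets above the floor were available for 27 of them, and these disagreed in sign for 12. Of the genes past 1.5-fold, Nt5e, Ctps, Impdh1 and Dck (higher) and Allc and Rrm2b (lower) had mean signals below 84.3. At that brightness the spread between probe sets was 0.48, beside their log2 differences of 0.70, 0.77, 0.59, 0.63, -0.93 and -0.60. A floor at the 75th percentile of signal, 84.3, would leave them out.

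**Figure D4:**
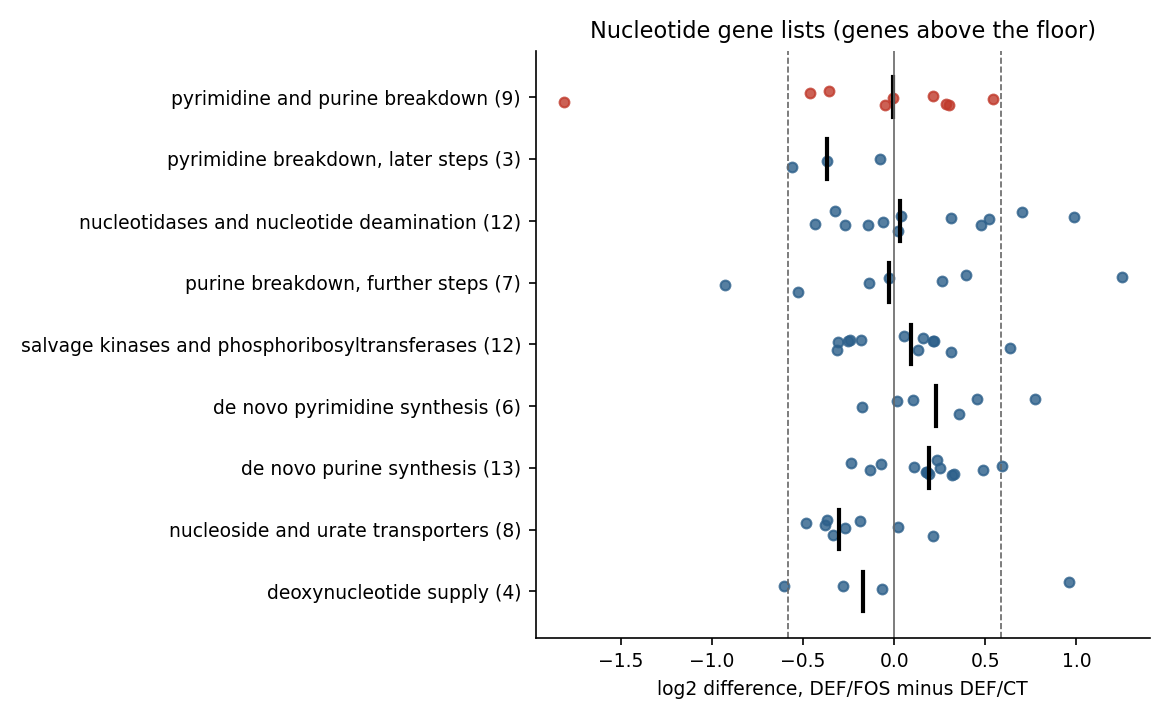
Log2 difference, DEF/FOS minus DEF/CT, of each gene above the floor in the breakdown genes (red) and in 8 further nucleotide gene lists (blue), with the number of genes in brackets, the median of each list as a black bar and dashed lines at 1.5-fold. Medians run from -0.37 for the later pyrimidine steps to 0.23 for de novo pyrimidine synthesis.

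The enzymes that handle the products of pyrimidine breakdown had differences below 0 in 3 of 3 genes, where 49.9% of all genes lay above 0, with 0 at 1.5-fold and a median of -0.37. Agxt2, an aminotransferase that acts on beta-aminoisobutyrate, the product from thymine, had 573 in DEF/FOS liver and 856 in DEF/CT liver, 1.48-fold lower. Abat, a transaminase of beta-alanine, the product from uracil, and of the transmitter GABA, had 983 in DEF/FOS liver and 1283 in DEF/CT liver, 1.29-fold lower. Aldh6a1, which oxidises the resulting semialdehydes, had 2428 in DEF/FOS liver and 2592 in DEF/CT liver, a log2 difference of -0.08, within the spread of 0.30. The median was -0.17 with no floor, where Dctd, a deaminase of deoxycytidylate that lay below the floor, joined the list.

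The further purine breakdown genes differed in both directions, with a median of -0.03. At 1.5-fold 1 of 7 was higher and 1 lower, beside 6.75% and 7.82% of all genes. Aox1, an aldehyde oxidase and a relative of Xdh that uses the same molybdenum cofactor, had 1148 in DEF/FOS liver and 488 in DEF/CT liver, 2.38-fold higher. Aox3, another aldehyde oxidase of mouse liver, was 1.44-fold lower, with 1825 in DEF/FOS liver and 2659 in DEF/CT liver. These relatives thus differed in opposite directions, at 1.25 and -0.53 on the log2 scale, each by a single probe set. Pnp, which splits inosine and guanosine, had 2129 in DEF/FOS liver and 1639 in DEF/CT liver, 1.31-fold higher. Gda, guanine deaminase, was 1.20-fold higher, and its probe sets above the floor had log2 differences of 0.26 and 0.74. Urah, which acts on the product of urate oxidase, had 2901 in DEF/FOS liver and 2989 in DEF/CT liver, and like Uox it differed little, at -0.03. Allc, the allantoicase gene, lay below the floor in DEF/FOS liver at 18.8, against 36.1 in DEF/CT liver. With the floor put in place of 18.8 it was 1.84-fold lower in DEF/FOS liver, which is no lower limit. Urad, the next step after Urah, had no probe set named for it alone.

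Upstream, 2 of 12 nucleotidases and related enzymes were at least 1.5-fold higher in DEF/FOS liver and 0 lower, beside 6.75% and 7.82% of all genes. The median of the 12 was 0.03. Entpd5, a nucleoside diphosphatase of the endoplasmic reticulum that acts on UDP and GDP, had 1337 in DEF/FOS liver and 682 in DEF/CT liver, 1.98-fold higher. Its 5 probe sets above the floor all pointed the same way, from 0.67 to 1.37. Nt5e, the ecto-nucleotidase that makes adenosine from AMP, had 66.5 in DEF/FOS liver and 41.4 in DEF/CT liver, 1.62-fold higher. Itpa, which clears inosine triphosphate, was 1.39-fold higher, and Nt5c2 1.43-fold with probe sets that ran from -0.18 to 0.86. The muscle isoforms Ampd1 and Adssl1, named after their values were seen, are given because of the muscle markers above. Ampd1, the AMP deaminase of muscle, was below the floor in both pools, at 2.42 in DEF/FOS liver and 2.86 in DEF/CT liver. Adssl1, adenylosuccinate synthase of muscle, had 122 in DEF/FOS liver and 145 in DEF/CT liver.

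Transporters of nucleosides and urate had differences below 0 in 6 of 8 genes, where 49.9% of all genes lay above 0. None was 1.5-fold apart, and the median was -0.30. Slc29a1, the equilibrative nucleoside transporter, had 723 in DEF/FOS liver and 949 in DEF/CT liver, 1.30-fold lower. Slc17a3, a transporter of organic anions including urate, was 1.29-fold lower, with 521 in DEF/FOS liver and 678 in DEF/CT liver. Slc2a9, the urate transporter of hepatocytes, had log2 differences of -0.34 and -1.26 over its probe sets, the first from the brightest at 39.3 in DEF/FOS liver and 50.1 in DEF/CT liver. Slc22a12, a urate transporter known from kidney, lay near the floor, with 16.4 in DEF/FOS liver and 23.1 in DEF/CT liver. Its log2 difference of -0.49 was close to the spread of 0.48 of dim genes. With the floor put in place of 16.4 it was 1.18-fold lower in DEF/FOS liver. Slc28a2, a concentrative nucleoside transporter, had no probe set named for it alone.

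De novo purine synthesis was above 0 in 10 of 13 genes, beside 49.9% of all genes, with a median of 0.19. At least 1.5-fold higher was 1 of the 13, or 7.69%, close to the 6.75% of all genes. Probe sets disagreed in sign for 5 of the 7 genes that had several. Impdh1, which commits inosinate to guanylate, was 1.51-fold higher, with 57.4 in DEF/FOS liver and 38.4 in DEF/CT liver. Gmps, the next enzyme of that branch, was 1.26-fold higher with another probe set at 0.003, and Prps1l3, a phosphoribosyl pyrophosphate synthetase gene, 1.25-fold higher. Atic, of the last steps to inosinate, was 1.40-fold higher with another probe set at -0.01. De novo pyrimidine synthesis was above 0 in 5 of 6 genes, beside 49.9% of all genes, with a median of 0.23. At least 1.5-fold higher was 1 of the 6, or 16.7%, beside 6.75% of all genes. That gene was Ctps, which makes CTP from UTP, with 88.3 in DEF/FOS liver and 52.2 in DEF/CT liver, 1.71-fold higher. Dut, which removes dUTP, was 1.37-fold higher, and Ctps2 1.28-fold with a probe set at -0.64. Dhodh, the mitochondrial step, had log2 differences of -0.18 and -0.70 over its probe sets, the first from the brightest.

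The 12 salvage genes had a median of 0.09, which was -0.044 when the probe sets of each gene were summarised by their median. Of the 12, 1, or 8.33%, was at least 1.5-fold higher in DEF/FOS liver and 0 lower, beside 6.75% and 7.82% of all genes. It was Dck, deoxycytidine kinase, 1.55-fold higher at 66.9 in DEF/FOS liver against 43.5 in DEF/CT liver, with both probe sets above 0. Uck1, a uridine-cytidine kinase, which returns uridine to the nucleotide pool, was 1.24-fold higher, and the thymidine kinases Tk1 and Tk2 were both 1.24-fold lower. Of 4 genes of deoxynucleotide supply, Rrm2, a subunit of ribonucleotide reductase that dividing cells use, was 1.95-fold higher, with 204 in DEF/FOS liver and 106 in DEF/CT liver and log2 differences from 0.46 to 0.96 over 3 probe sets. Its p53-inducible relative Rrm2b was 1.52-fold lower, with 35.7 in DEF/FOS liver and 54.7 in DEF/CT liver. Rrm1, the large subunit, differed by -0.06 with probe sets that disagreed in sign. Samhd1, which breaks down deoxynucleotides, differed by -0.28 with probe sets from -2.06 to 2.46, so that its direction is unknown here.

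The breakdown genes were recomputed under other processing settings. Over 9 settings the log2 difference of Upp2 stayed between -1.85 and -1.64, which is 3.11-fold to 3.61-fold lower in DEF/FOS liver. That of Dpyd stayed between -0.39 and -0.30 and that of Cda between 0.44 and 0.60. The difference of Cda reached 1.51-fold with no floor, where only the centring of its difference changed. For Dpys the range was 0.02, with the median over its probe sets, to 0.27, and for Xdh 0.24 to 0.34. Over the 8 settings that keep genes this dim, Upp1 ran from 0.14 to 0.41 and Ada from -0.48 to -0.23. The differences of Upb1 and Uox took both signs, within -0.07 to 0.01 and -0.03 to 0.05.

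**Figure D5:**
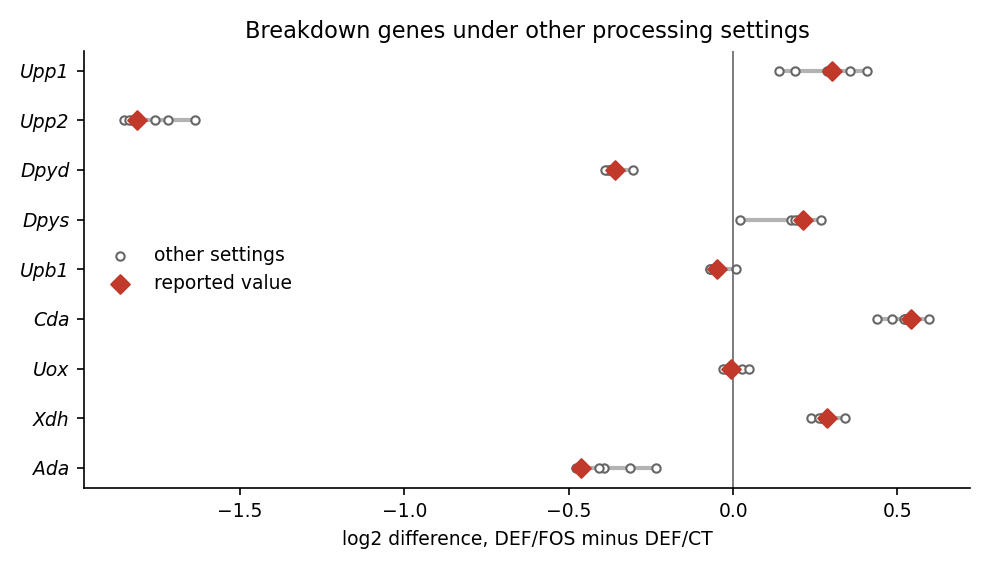
Log2 difference, DEF/FOS minus DEF/CT, of each of the 9 breakdown genes as reported (red diamond) and under the other processing settings (open circles, joined by a line from the lowest to the highest). Upp2 stays between -1.85 and -1.64, apart from the other genes, and Uox and Upb1 cross 0.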

How the data were processed

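Liver RNA pools of the DEF/FOS and DEF/CT groups were measured on 1 array each. The deposited table gives 45101 probe sets, 64 of them controls, as linear intensity values (MAS5 signals); GCOS and MAS5 are named, without a version, in the submitters' processing notes. Trimmed by 2% on either side, the mean was 100.0 for each array, so the authors had scaled them alike. The table holds no detection calls or backgrounds, and the number of arrays limits the precision.

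Symbols came from the platform annotation, in which 34958 probe sets had 1 symbol and 932 several; 34754 matched a RefSeq identifier (GRCm38.p6) and 0 symbols changed. Log2 differences were centred by -0.01, the median above the floor (50th percentile of mean signal). The brightest probe set stood for a gene. Named were all 10 breakdown genes, 12 pathway neighbours by symbol, and the up to 4 largest differences of each further list. Dctd, Ighm and the neutrophil markers were named outside this rule, with their values known. Other names are marked. Members and lists were chosen with earlier results of these data known. Promoters are RefSeq's. A planned protein comparison of Upp1, Upp2 and Tymp was not made, as no protein sequences were used here. Python 3.11.15, numpy 2.4.6 and pandas 2.3.3 were used, and the procedure was tested on simulated data.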

Additional observations from a re-analysis of the deposited data

How the results depend on the processing

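The 9 other settings included quantile normalization, no centring, offsets of 16 and 32, no floor, and a floor at the 75th percentile. The rest were signals raised to the floor where they lay below it, the median over probe sets, and no probe sets ending in _x_at or _s_at. The count of breakdown genes at least 1.5-fold lower was 1 in each, of 7 genes with the floor at the 75th percentile and of 9 otherwise. The share of all genes lower by that much ran from 2.31% with an offset of 32 to 19.5% with no floor. No breakdown gene past 1.5-fold turned its direction. The count at least 1.5-fold higher was 1 of 9, Cda, with no floor and 0 in the other 8. Beside these counts, 15.7% of all 18193 genes were higher by that much with no floor. In the other 8 settings the share of all genes ran from 2.49% to 7.26%. With no floor the same probe sets stood for the breakdown genes, and only the centring of their differences changed. With any 1 gene left out, chosen after seeing the data, or under the other settings, the median of the breakdown genes ran from -0.03 to 0.10. With no floor the median of the later pyrimidine steps was -0.17 and that of the transporters -0.17, and with an offset of 32 the transporters gave -0.16. With the median over probe sets the salvage list gave -0.044. With no floor both the centring and the genes of these lists changed, and the cause of the other shifts was not tested. The spread used to judge a shift was the SD of 0.38 between probe sets of a gene, divided by the root of the number of genes for a median. It leaves out the spread between mice and between arrays. No paired analysis was possible because each group had 1 array. Signals near the floor, as for Upp1 and Ada, are the least certain.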
